A study of Arabidopsis thaliana with 2 samples.

Results

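Coiled-coil NLR (CC-NLR) genes encode intracellular immune receptors of plants, named for an N-terminal coiled-coil domain, a nucleotide-binding domain and leucine-rich repeats. They were examined here in MNase-seq of Arabidopsis thaliana leaves, a method in which micrococcal nuclease digests exposed DNA and the protected, mostly nucleosomal, DNA is sequenced. The members were 45 listed loci, taken by locus ID out of 27432 protein-coding genes placed on the 5 nuclear chromosomes, and all 45 were found in the gene table. Each gene was read from the 10-kb bin that holds its midpoint, each bin once, which gave 40 of 11916 nuclear bins, since 5 bins hold 2 members each. Chromosome 1 carries 25 of the 45 genes, chromosome 5 carries 9, chromosome 3 carries 7, chromosome 4 carries 4 and chromosome 2 carries 0.

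The series compared 1 library of the chr5 mutant with 1 library of the wild type, both from untreated plants grown on plates at 22 °C. The CHR5 protein belongs to the CHD1 branch of SNF2 remodelling enzymes, ATP-driven motors that move and space nucleosomes. The series profiles nucleosomes in plants with the genotype labels chr5 and wild type. The sources used here do not give the allele, the accession, the age of the plants or whether plants were pooled. The chr5 library held 102961878 counts and the wild-type library 99909809, of which 102412872 and 99392770 were nuclear. The 2 bins of the CHR5 locus had 15636 counts in chr5 and 15526 in the wild type, a fold of 0.977 (exact 95% interval 0.956 to 0.999), and bins of this size cannot check a point mutation or an insertion. Genomic DNA carries no expression markers, so the leaf label was not checked. With 1 library per genotype there is no replicate check and no test between genotypes. All intervals given are exact 95% intervals that cover counting error only.

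CC-NLR proteins detect pathogen effectors inside the cell, often by watching over a host protein that the effector modifies, and then trigger defence and local cell death. Their genes are often arranged in tandem clusters of related copies, in which reads of close copies can be hard to assign to one place. A member was called clustered when another member's midpoint lay within 50 kb, and single otherwise. By this rule 27 genes in 22 bins were clustered, in 11 clusters of 2 to 4 genes, and 18 genes in 18 bins were single. Within clusters the midpoint of the nearest member was at most 26.1 kb away, and for single genes it was at least 73.5 kb away. No gene's label as clustered or single was therefore close to the threshold. The count of clusters was closer to it. AT1G58410 and AT1G58602, in bins from 21700001 and 21750001 of chromosome 1, fell in separate clusters. So did AT1G61190 and AT1G61300, in bins from 22550001 and 22600001. A member covered a median of 33.8% of its bin, so every value below belongs to a bin that also holds other sequence.

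The widest contrast among the members was in the counts of their bins in both libraries, not between the genotypes. In the cluster of AT1G58602, AT1G58807, AT1G59124 and AT1G59218 on chromosome 1, the bins of the last 3 genes were almost empty in both libraries, while the bin of the first was near the genome median. The bin of AT1G58807 (21780001 to 21790000) had 0 counts in chr5 and 0 in the wild type, and that of AT1G59124 (21810001 to 21820000) likewise had 0 in chr5 and 0 in the wild type. A count of 0 allows up to 3 counts, or 0.0293 CPM (counts per 1000000 nuclear counts) in chr5 and 0.0302 CPM in the wild type. The bin of AT1G59218 (21830001 to 21840000) had 83 counts in chr5 and 106 in the wild type, a fold of 0.76 whose interval of 0.563 to 1.02 includes 1. The bin of AT1G58602 (21750001 to 21760000), a gene that covers the whole bin, had 7732 counts in chr5 and 7568 in the wild type.

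These 3 bins belong to a run of 8 consecutive bins (chromosome 1, 21770001 to 21850000), 80 kb long, in which no bin passed a minimum of 0.25 times the median scaled count. The run held 1314 counts in chr5 and 1278 in the wild type in all, a fold of 0.998 (0.923 to 1.08), and 4 of its bins were at 0 in both libraries. Its wild-type sum is 2.02% of the counts that 8 median bins would hold. Outside the pericentromeres there were 23 such runs of low bins, and only 1 was longer, at 12 bins. Pericentromeres were taken throughout as bins centred within 2 Mb of a fixed, rounded centromere position, not from an annotation. Of the 16 protein-coding genes with midpoints in the run, 7 have the same annotated length as another gene of the run or within 50 kb of it. AT1G58807 and AT1G59124 are such a pair, as are AT1G58684 with AT1G59359 and AT1G58725 with AT1G59406. No share for genes elsewhere is given here to set beside 7 of 16. How the authors treated reads that match several places is not stated in the sources used here, and its part in the empty bins was not tested. These bins were therefore not read as free of nucleosomes. In all, 3 of the 40 CC-NLR bins fell under the count minimum, against 1.52% of all nuclear bins.

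**Figure D1:**
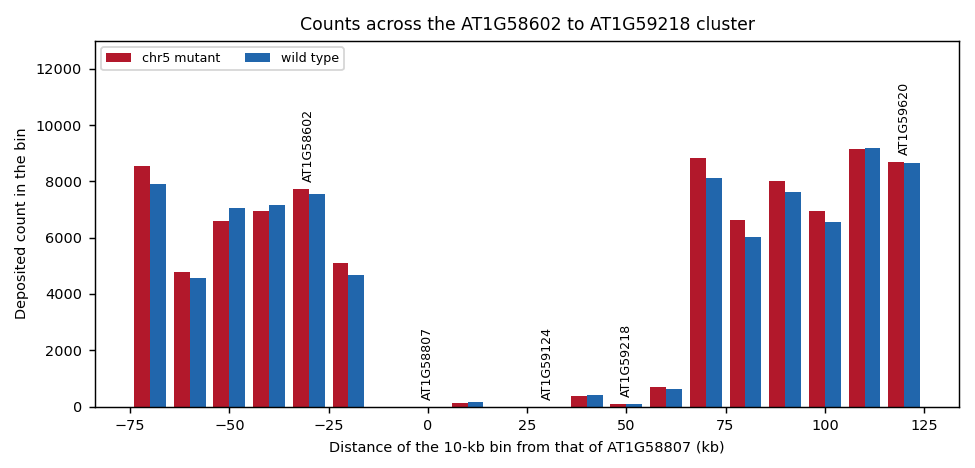
Deposited counts per 10-kb bin in chr5 (red) and wild type (blue) against the distance of each bin from that of AT1G58807 in kb. The bins of AT1G58807 and AT1G59124 are at 0 in both libraries and that of AT1G59218 holds 83 counts in chr5 and 106 in the wild type, while AT1G58602 and the single gene AT1G59620 to the right lie in well-covered bins.

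In the wild type, bins of clustered members held somewhat fewer counts than bins of single members, and the ranges overlapped widely. The median was 76.0 CPM over the 22 clustered bins and 83.0 over the 18 single bins, a difference of -6.98. The middle 50% of the values ran from 58.4 to 96.4 in clustered bins and from 64.7 to 94.9 in single bins. All nuclear bins had a median of 79.7, and the bins that hold a protein-coding midpoint one of 78.8. Of the clustered bins 14 of 22 were below the nuclear median, as were 8 of 18 single bins, against 50% of all nuclear bins. Among clustered bins that passed the count minimum it was 11 of 19. The difference of the medians over bins that passed was -6.83, so it does not rest on the empty bins alone. Without the 7 genes from AT1G58390 to AT1G59218, which form 2 neighbouring clusters, it was -3.09. Of the 16 clustered bins then left, 8 were below the nuclear median. Protein-coding genes, taken from annotated start to end, covered a median of 77.1% of the clustered bins and 82.8% of the single bins. The median of all nuclear bins was 60.1%. Over bins that passed the count minimum it was 80.9% for clustered and 82.8% for single bins. The part of this coverage in the difference of counts was not tested.

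The clustered members include both the emptiest and the most densely covered bins. The bin of the tandem pair AT3G14460 and AT3G14470 (chromosome 3, 4850001 to 4860000) was the highest, with 13800 counts in chr5 and 13134 in the wild type, or 135 CPM in chr5 and 132 CPM in the wild type. The bin of AT5G47260 followed with 119 CPM in chr5 and 128 CPM in the wild type. Next came the single gene AT5G63020, with 118 CPM in chr5 and 115 CPM in the wild type, and the clustered AT4G27190, with 106 CPM in chr5 and 110 CPM in the wild type. ZAR1 was the fifth, with 106 CPM in chr5 and 108 CPM in the wild type. At the other end, after the 3 bins of the empty run, stood AT1G58410 with 57.4 CPM in chr5 and 54.3 CPM in the wild type, and AT1G63360 with 55.6 CPM in chr5 and 55.3 CPM in the wild type. Other clusters of chromosome 1 differed by place. The adjoining bins of SUMM2 and AT1G12290 lay at 103 and 96.8 CPM in the wild type, above the nuclear median. The 5 clustered bins from AT1G61180 to AT1G63360 lay between 55.3 and 67.5 CPM, below it.

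Compared with their surroundings, clustered bins that passed the count minimum stood slightly above the 5 bins on either side. Their wild-type count was a median of 1.14 times the median of those 10 flanking bins, and 12 of 19 lay above it, whereas the single bins were at 0.98, with 8 of 18 above. All nuclear bins that passed the minimum were at 1.004, with 50.6% above. Bins of genes for NLR proteins with a TIR domain, the closest other class, were at 1.14, with 24 of 40 above. Bins of genes that work with CC-NLR proteins were at 1.07, with 19 of 28 above. A level above the flanks was thus not particular to clustered CC-NLR genes. Among the CC-NLR bins that passed the minimum, the highest local ratio was at AT5G47260, at 1.87, followed by AT5G63020, at 1.69, and AT1G58602, at 1.64. Of the 10 bins that flank AT1G58602, 4 belong to the empty run, and the bin itself, at 76.1 CPM in the wild type, was below the nuclear median of 79.7 CPM. The lowest was at the single gene AT4G10780, at 0.668. Flanking bins of clustered genes can hold other members of the cluster.

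**Figure D2:**
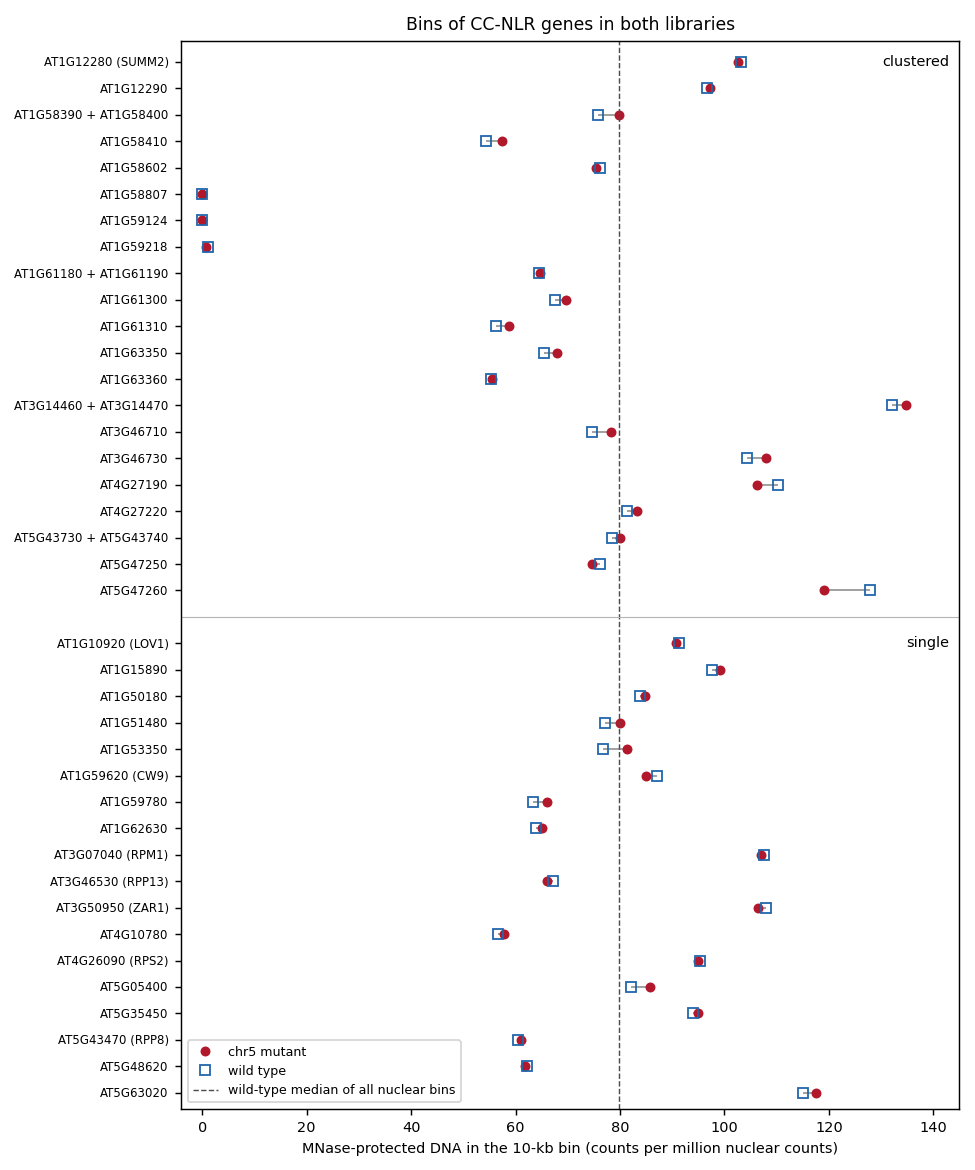
Counts per 1000000 nuclear counts (CPM) in each CC-NLR bin for chr5 (filled red circles) and wild type (open blue squares), with clustered members above and single members below in genome order, 1 clustered bin not shown, and a dashed line at the wild-type median of all nuclear bins. Both libraries lie close together in each bin, and the bins of AT1G58807, AT1G59124 and AT1G59218 lie at or near 0.

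Between the genotypes, CC-NLR bins kept nearly the same relative counts. Over the 37 bins that passed the count minimum, Pearson's r of the log2 counts of chr5 and wild type was 0.994, against 0.993 over all 11735 such bins. These are descriptions across bins, which share both libraries and are not replicates. The median log2 ratio of chr5 to wild type was 0.025 over the CC-NLR bins, against 0.015 over all bins and 0.019 over bins with a protein-coding midpoint. The ratios ran from -0.10 to 0.084, with an SD over bins of 0.040, against 0.064 over all bins. Of the 37 bins 25 were above 0, against 61.4% of all bins, and 16 were below the median of all bins, against 50%.

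No CC-NLR bin passed a 1.1-fold difference in either direction. Among all bins 2.65% were lower and 0.81% higher in chr5 by that measure, so counts of 0 among 37 bins are near the background. At a 5% difference, counted on the fold scale in both directions, the CC-NLR bins higher in chr5 numbered 3 and the lower ones 1, against 12.1% and 9.29% of all bins. The counting interval of the fold lay wholly above 1 in 10 of the 37 bins and wholly below 1 in 2, against 24.6% and 16.2% of all bins.

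The 2 lowest ratios belonged to clustered genes, and the third lowest to the single gene CW9, described with the known receptors. The bin of AT5G47260 (chromosome 5, 19190001 to 19200000) had 12197 counts in chr5 and 12704 in the wild type, a fold of 0.932 (0.909 to 0.955). It was the lowest of the 37 and stood at percentile 5.18 of all bins. Its neighbour AT5G47250, in the adjoining bin, had 7641 counts in chr5 and 7565 in the wild type, a fold of 0.98 (0.949 to 1.01). AT4G27190 (chromosome 4, 13620001 to 13630000) had 10874 counts in chr5 and 10959 in the wild type, a fold of 0.963 (0.938 to 0.989). Its cluster partner AT4G27220, in the next bin, was above 1 instead, with 8525 counts in chr5 and 8079 in the wild type and a fold of 1.02 (0.993 to 1.06).

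The highest ratios were split between single and clustered genes. AT1G53350, a single gene on chromosome 1 (19900001 to 19910000), had 8338 counts in chr5 and 7636 in the wild type, a fold of 1.06 (1.03 to 1.09), and stood at percentile 92.6 of all bins. The adjoining bins of AT1G58410 and of AT1G58390 with AT1G58400 (chromosome 1, 21690001 to 21710000) were at 1.057 (1.02 to 1.097) and 1.052 (1.02 to 1.09). AT1G58410 had 5880 counts in chr5 and 5397 in the wild type, and the pair had 8173 in chr5 and 7541 in the wild type. AT3G46710 had 8026 counts in chr5 and 7423 in the wild type, a fold of 1.049 (1.02 to 1.08), and the single gene AT5G05400 had 8773 in chr5 and 8158 in the wild type, a fold of 1.04 (1.01 to 1.08). All 37 folds, from 0.932 to 1.06, lie inside the central 95% of all bins, which ran from 0.907 to 1.08.

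Clustered and single members differed little in the ratio. The median log2 ratio was 0.029 over 19 clustered bins and 0.016 over 18 single bins, a difference of 0.013. The clustered bins ranged from -0.10 to 0.080 with an SD of 0.047, and the single bins from -0.035 to 0.084 with an SD of 0.033, so the ranges overlap over most of their length. Below the median of all bins were 8 of 19 clustered and 8 of 18 single bins. With summed counts, the fold was 1.010 (1.003 to 1.017) for clustered and 1.011 (1.004 to 1.018) for single bins, against 1.008 for all bins with a protein-coding midpoint. Without the genes from AT1G58390 to AT1G59218 the interval of the clustered bins was 0.999 to 1.014 and included 1. The difference between the medians was 0.0020 with no count filter and 0.0077 with clusters drawn at 200 kb, and it turned to -0.013 in bins of 50 kb. With no filter the near-empty bins of AT1G58807, AT1G59124 and AT1G59218 enter. AT1G58807 and AT1G59124 have 0 counts in both libraries, so their ratio of -0.043 comes from the pseudocount and library totals alone.

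**Figure D3:**
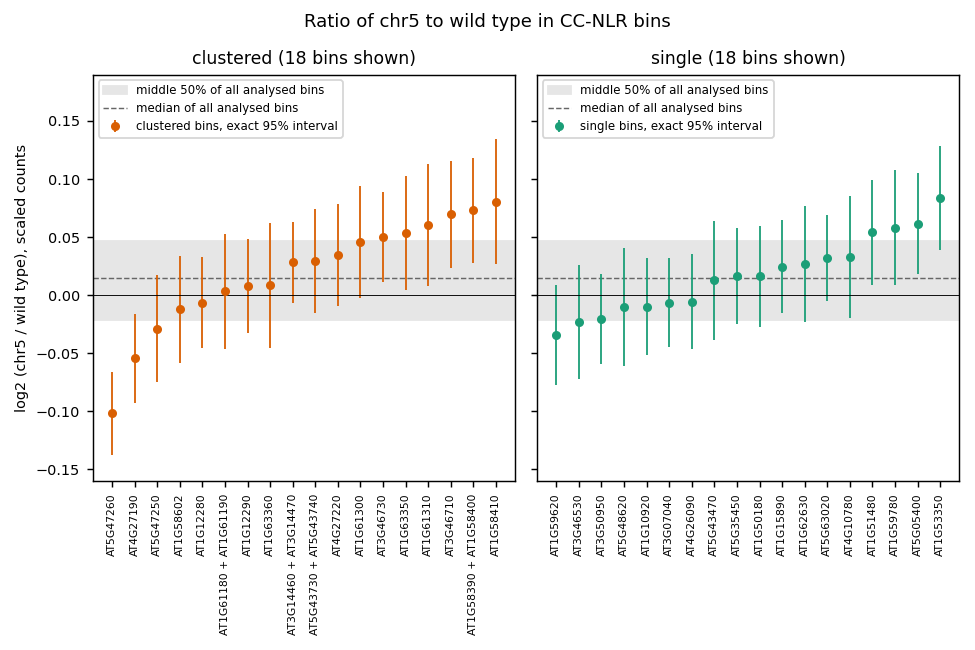
The log2 ratio of chr5 to wild type in each analysed CC-NLR bin, sorted within clustered (left) and single (right) members, with exact 95% counting intervals and 1 clustered bin not shown. The dashed line and the grey band give the median and the middle 50% of all analysed bins; AT5G47260 at -0.10 is the lowest and AT1G53350 at 0.084 the highest.

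The ratio also moved with the count of the bin. Over all analysed bins Spearman's rho of the log2 ratio with the mean scaled count was -0.43, and over the 37 CC-NLR bins it was -0.30, both given as descriptions of bins that share the same libraries. Both axes hold the same counts. By deciles of mean count, the median ratio of all bins was 0.052 in the lowest and -0.046 in the highest. With the median of the same decile subtracted from each bin, the CC-NLR median was 0.0025, with 15 of 37 bins below 0, against 50% of all bins. By that measure clustered bins were at 0.019 and single bins at -0.0028. AT5G47260, the second most densely covered member, was then at -0.055 instead of -0.10. The bin of AT3G14460 and AT3G14470, in the highest decile, was at 0.075, and that of the single gene AT5G63020, in the same decile, at 0.078.

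**Figure D4:**
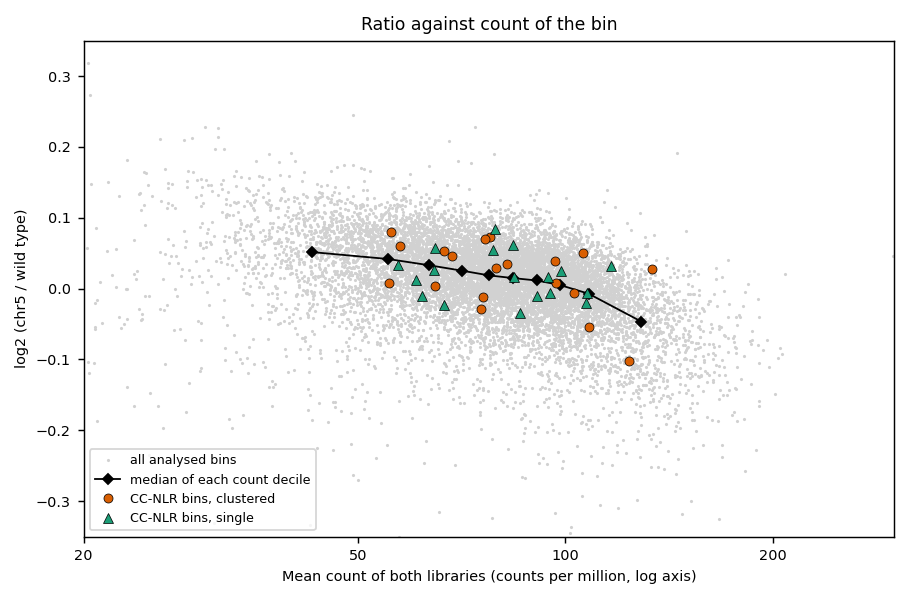
The log2 ratio of chr5 to wild type against the mean scaled count (log axis) for CC-NLR bins, clustered as orange circles and single as green triangles, over all analysed bins in grey, of which 32 lie outside the axes. Black diamonds join the medians of the 10 count deciles, from 0.052 to -0.046, and the CC-NLR bins lie on both sides of that line.

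Bins of receptors with known roles had summed counts close to the wild type, which does not show where nucleosomes sit within a gene. RPM1 and RPS2 recognise bacterial effectors that act on the host protein RIN4. The bin of RPM1 had 10963 counts in chr5 and 10688 in the wild type, a fold of 0.995 (0.969 to 1.02), and that of RPS2 had 9717 in chr5 and 9468 in the wild type, a fold of 0.996 (0.968 to 1.02). ZAR1, which assembles into a membrane-associated resistosome with kinase-like partners, had 10905 counts in chr5 and 10736 in the wild type, a fold of 0.986 (0.960 to 1.01). SUMM2, which triggers cell death when the MPK4 kinase cascade is disrupted, had 10516 in chr5 and 10251 in the wild type, a fold of 0.996 (0.969 to 1.02). For each of these 4 bins the interval included 1, and all were above the nuclear median in wild-type count. The median fold of all bins was 1.010, not 1. All 4 folds were below it, as are 50% of all bins, and all 4 intervals included it.

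RPP13 and RPP8 are receptors for the downy mildew oomycete, and alleles of RPP8 confer resistance to viruses. Both lay in bins of fewer counts. RPP13 had 6761 counts in chr5 and 6668 in the wild type, a fold of 0.984 (0.951 to 1.02), and RPP8 had 6249 in chr5 and 6012 in the wild type, a fold of 1.01 (0.974 to 1.045). LOV1, through which the fungal toxin victorin causes susceptibility, had 9292 counts in chr5 and 9080 in the wild type, a fold of 0.993 (0.965 to 1.02). CW9 had 8706 in chr5 and 8654 in the wild type, a fold of 0.976 (0.948 to 1.006). The folds of RPP13, RPP8 (1.009), LOV1 and CW9 were likewise below the all-bin median of 1.010, and the interval of CW9 ended below it. AT5G35450, the only member in a pericentromere, had 9730 in chr5 and 9337 in the wild type, a fold of 1.01 (0.983 to 1.04). The 16 bins outside the extremes and the known receptors, among them those of AT4G27220 and AT5G35450, hold 18 members and ranged from 5927 to 11065 counts in chr5 and from 5601 to 10373 in the wild type. Their folds ran from 0.993 to 1.04. The interval lay above 1 in 5 of them and below 1 in 0, against 24.6% and 16.2% of all bins, and the extremes were already taken out of these 16.

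Where 2 members occupied adjoining bins, which happened 7 times, their levels differed about as much as those of any neighbours. The higher wild-type count was a median of 1.36 times the lower, against 1.27 over all 11665 adjoining pairs of analysed bins. Their log2 ratios differed by a median of 0.020, against 0.040 over all pairs. The widest gap in ratio was 0.089, between AT4G27220 and AT4G27190, and the widest gap in count was 1.68 times, between AT5G47260 and AT5G47250. In 5 of the 7 pairs both bins had a log2 ratio of the same sign, against 63.2% of all pairs.

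Genes that work with CC-NLR proteins were taken as a list of 29 loci in 28 bins, and all passed the count minimum. They had a median log2 ratio of 0.0012, and 17 of 28 bins were below the median of all bins, against 50% of all bins. Pericentromeric bins, among them that of RIPK, made up 4 of the 28. They were 1 of the 40 CC-NLR bins and 2000 of the 11916 nuclear bins, and their part in the list median was not tested. With the median analysed bin set to 0, which lowers every list alike, the list median turned to -0.013, and in bins of 50 kb it was 0.018. At a difference of 5%, 2 were higher and 2 lower in chr5, against 12.1% and 9.29% of all bins. None passed 1.1-fold, against 0.81% of all bins higher and 2.65% lower. Of the guarded proteins and kinases, RIN4 had 6356 counts in chr5 and 6007 in the wild type, a fold of 1.03 (0.991 to 1.06), and PBS1 had 10282 in chr5 and 9952 in the wild type, a fold of 1.003 (0.975 to 1.03). ZED1 (AT3G57750), a pseudokinase partner of ZAR1, had 8413 in chr5 and 7804 in the wild type, a fold of 1.046 (1.01 to 1.08), and NDR1, a membrane protein needed for signalling by several CC-NLR proteins, had 6416 in chr5 and 5925 in the wild type, a fold of 1.051 (1.01 to 1.09). The highest bin was that of MKK1 (AT4G26070), a kinase of the MPK4 cascade, with 7158 counts in chr5 and 6603 in the wild type and a fold of 1.052 (1.02 to 1.09). The lowest was that of SRFR1, a negative regulator of immune receptors, with 8140 counts in chr5 and 8356 in the wild type and a fold of 0.945 (0.917 to 0.975). RIPK, a kinase that phosphorylates RIN4, was next lowest, with 5621 counts in chr5 and 5736 in the wild type and a fold of 0.951 (0.917 to 0.987).

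The closest other class, genes of NLR proteins with a TIR domain, was set beside the CC-NLR genes as a list of 46 loci in 40 bins. The median log2 ratio was 0.025 over the CC-NLR bins and 0.0015 over the TIR-NLR bins, with an SD over bins of 0.040 and 0.058. At a difference of 5%, CC-NLR bins were higher in 3 and lower in 1 of 37, and TIR-NLR bins were higher in 5 and lower in 5 of 40. Among all bins 12.1% were higher and 9.29% lower, and nothing is read from these counts. In the wild type the medians were 76.9 CPM in CC-NLR bins and 80.6 CPM in TIR-NLR bins. The TIR-NLR list has 0 bins under the count minimum and the CC-NLR list 3. This difference between lists has no test, and in bins of 50 kb the medians were 0.024 and 0.019. With the median analysed bin set to 0, a shift common to both lists, the CC-NLR median was 0.0098 and the TIR-NLR median -0.013.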

How the data were processed

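Leaf chromatin was digested with MNase and made into 1 library of chr5 and 1 of wild type, per the labels' protocols. BWA 0.7.5a and bedtools are named in the submitters' processing notes, with no roles. The sources used here do not state the build or the handling of duplicates and multiple matches. The authors deposited raw whole-number counts per 10-kb bin. Counts were scaled to the total over chromosomes 1 to 5, and log2 ratios used a pseudocount of 1. Bins under 0.25 times the median mean scaled count were left out of ratios (181 of 11916). Folds carry no pseudocount and have exact conditional binomial intervals. PCR copies are not independent molecules.

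Genes were placed with a RefSeq table of TAIR10.1, whose coordinates are not printed. As a check, wild-type counts were correlated with coverage by protein-coding genes, each less a running median of 21 bins. The correlation was 0.20 to 0.39 per chromosome unshifted and at most 0.085 when shifted by up to 4 bins. All 120 loci of the 3 lists matched. The values of 1 member's bin are not reported here, though the counts and medians include it. The members and lists were chosen with earlier results of these data known. The named bins are the 5 lowest and 5 highest by ratio and by wild-type count, known receptors in any case, and the 2 extremes on each side of the partner genes with RIN4, NDR1, PBS1 and ZED1. The flanking bins, adjoining pairs, count deciles, AT1G12290, AT1G61180, AT4G10780, AT4G27220, AT5G35450 and the genes of the empty run were added after their values were seen. Scripts were tested on simulated counts. Software was Python 3.11.15 (numpy 2.4.6, pandas 2.3.3, scipy 1.17.1); figures used matplotlib 3.10.9.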

Additional observations from a re-analysis of the deposited data

How the results depend on the processing

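With 1 library per genotype, depth sets only the counting error, a median half-width of 3.11% for the fold of a CC-NLR bin, and the spread between preparations is unknown. No paired analysis was possible because each genotype has 1 library. The count of clustered minus single bins in the wild type was -6.98 CPM as reported. It was -12.3 with clusters drawn at 200 kb and -3.58 at 20 kb. Without the genes from AT1G58390 to AT1G59218, an alternative chosen after seeing the data, it was -3.09. Under the other 5 it moved by less than the counting error, which does not measure the spread between bins. The CC-NLR median log2 ratio of 0.025 was 0.0098 with the median bin set to 0, 0.016 with no count filter and 0.0025 less the median of the count decile, the last also chosen after seeing the data. The clustered minus single difference of 0.013 in log2 ratio reversed to -0.013 in bins of 50 kb, was 0.0020 with no count filter and 0.0077 with clusters at 200 kb, and lay between 0.013 and 0.021 under the other 11 alternatives. The TIR-NLR median of 0.0015 reversed to -0.013 with the median bin set to 0 and was 0.019 in bins of 50 kb. The partner median of 0.0012 likewise reversed to -0.013 and was 0.018. Setting the median bin to 0 lowers the median of every list by the same amount. Past 1.1-fold, 1 lower bin (AT1G59218) appeared with no filter. In the values with no filter, member bins at 0 in both libraries enter at -0.043, which the pseudocount and library totals alone set. At a difference of 5% there were 1 lower and 3 higher. The causes were not tested. Clusters by gene descriptions and the removal of members with near-identical proteins were not run, since the gene table holds neither descriptions nor sequences.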
